A study of Mus musculus with 7 samples.

Results

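Growth hormone acts on the liver through its receptor Ghr, which switches on the kinase JAK2 and the transcription factors STAT5a and STAT5b. STAT5 drives the gene for insulin-like growth factor 1 (Igf1), the gene for the acid-labile subunit that carries it in blood (Igfals), and the feedback inhibitors Socs2 and Cish. Binding proteins such as Igfbp1 and Igfbp2 hold IGF in the circulation, and Igfbp1 in liver is held down by insulin and raised in fasting. In rodents, males secrete growth hormone in pulses and females more steadily, which sets much of the sex-dependent expression of liver genes.

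The 10 genes of this axis described here are Ghr, Stat5a, Stat5b, Bcl6, Cish, Socs2, Igf1, Igfals, Igfbp1 and Igfbp2. They were taken by gene symbol from the array annotation, and all 10 were measured, among 16468 named genes. Socs2 was read by 2 probes and the other 9 genes by 1 probe each.

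The data are liver RNA of 7 mice on 2-colour arrays, 3 of them Zfp90 transgenic (1 female and 2 males; Zfp90 is a zinc finger protein) and 4 of them littermates without the transgene, called wild type (1 female and 3 males). Each animal (Cy5) was hybridised with a common reference (Cy3), liver RNA pooled from 4 wild-type mice of both sexes. The strain, age and feeding state of the mice, and the promoter and founder line of the transgene, are not given in the sources used here. Every value below is a log2 ratio of an animal to the pool, so values of different genes cannot be set against each other as amounts of RNA. The precision is limited by the number of arrays.

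In the transgenic livers Igfbp2, Igfals and Socs2 had the lowest values of the axis relative to wild type, while Stat5b and Bcl6 sat close to the pool in every animal. None of the 10 genes passed the threshold (adjusted p of 0.05 in limma, a linear model fitted across all 22218 features of the array, with sex as a term), and neither did any other feature. At an unadjusted p under 0.05 there were 3 of the 10 genes, Igfbp2, Igfals and Socs2, where 6.91% of all features lay under it. All 3 transgenic animals lay below all 4 wild-type animals in 2 of the 10 genes, Igfals and Igfbp2, where 2.84% of all features did so, and 0 of the 10 lay above, where 3.17% did. The percentage of features called at the adjusted threshold was 0. Of the 10 differences, 7 were negative and 3 positive with a median of -0.17, against a median of -0.01 over all features.

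**Figure D1:**
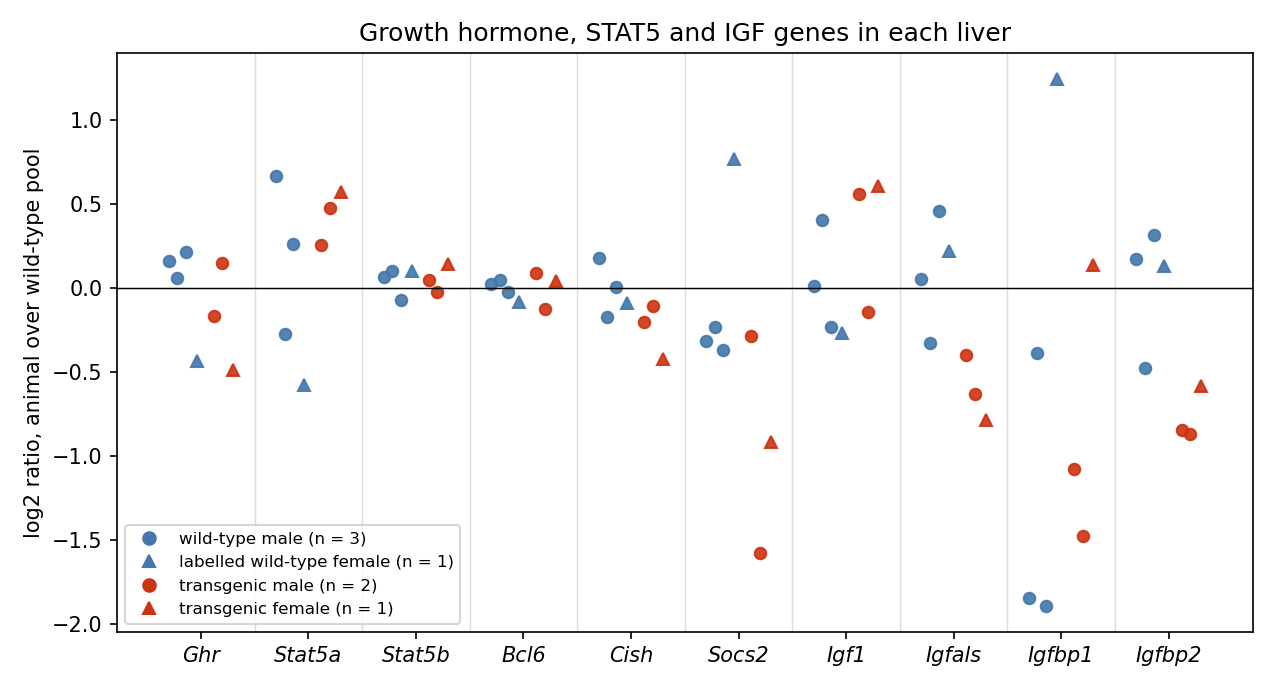
Log2 ratio to the wild-type pool (vertical axis) of 10 growth hormone, STAT5 and IGF genes, 1 symbol per animal: circles are males, triangles females, blue wild type and red transgenic. All 3 red symbols lie below all blue symbols in Igfals and Igfbp2, and Stat5b and Bcl6 stay near 0.

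Zfp90 itself read 0.34 to 0.58 in the transgenic animals and -0.29 to -0.11 in the wild-type males, but 0.37 on the array labelled wild-type female, so the targeted gene did not separate the females by label. That array is called "labelled wild-type female" below, and the values without it are given where it carries weight. Labels give the pool as Cy3 and the animal as Cy5, and the Y-linked Kdm5d read -3.22 and -2.54 in the females and above 0 in all 5 males, which set the direction of every array. Of 21 pairs of arrays 3 correlated below -0.3 over all probes (lowest -0.497). Were every array turned, the differences below would have the opposite sign and the same p.

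Igfbp2, a binding protein made by hepatocytes that limits the IGF available to tissues, gave the smallest p of the axis for genotype. It read -0.85 and -0.87 in the transgenic males and -0.58 in the transgenic female. Wild-type males read 0.17, -0.48 and 0.31, and the labelled wild-type female 0.13. The transgenic values all lay below the wild-type ones, by a gap of 0.11 between the nearest animals, which were the transgenic female and wild-type male 3. The fitted difference was -0.82 ± 0.19 SE (1.76-fold lower, 95% interval -1.25 to -0.38, unadjusted p = 0.00281, adjusted p = 0.576 in limma, n = 3 and 4). The transgenic mean was -0.77 ± 0.16 (SD, n = 3) and the wild-type mean 0.03 ± 0.35 (SD, n = 4).

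Igfals, which holds IGF-1 and its binding protein in the long-lived complex of blood and is made almost only in liver, followed the same order of genotypes. The transgenic female read -0.79, and the transgenic males -0.40 and -0.63. The labelled wild-type female read 0.22, and the wild-type males 0.05, -0.33 and 0.45. Again wild-type male 3 was the lowest of its group, 0.07 above the highest transgenic animal. The difference was -0.70 ± 0.19 SE (1.63-fold lower, 95% interval -1.16 to -0.25, unadjusted p = 0.00769, adjusted p = 0.665 in limma). The transgenic animals averaged -0.61 ± 0.20 (SD, n = 3) and the wild-type animals 0.10 ± 0.33 (SD, n = 4).

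With the labelled wild-type female left out, an order that both genes had to keep, 6.82% of all features had the 3 transgenic animals below the 3 wild-type males, and 2 of the 10 genes did. Quantile normalization between arrays, which forces one distribution on all of them, left Igfals separated but not Igfbp2, where the transgenic female then read -0.39 and wild-type male 3 -0.40. Over the alternatives tried the difference ran from -0.97 to -0.71 in Igfbp2 (adjusted p 0.181 to 0.9997) and from -0.85 to -0.58 in Igfals (adjusted p 0.181 to 0.9997).

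Igfals and Igfbp2 lay low in the same animals, so the stretches before their transcription starts are shown side by side for the STAT binding motif TTCNNNGAA, which reads the same on both strands. Sequences are from RefSeq (assembly GRCm38.p6, 5′ to 3′ on the strand of the gene), 250 bases before the annotated start, with matches in capitals.
Igfals, chr17:24877594-24877843, plus strand: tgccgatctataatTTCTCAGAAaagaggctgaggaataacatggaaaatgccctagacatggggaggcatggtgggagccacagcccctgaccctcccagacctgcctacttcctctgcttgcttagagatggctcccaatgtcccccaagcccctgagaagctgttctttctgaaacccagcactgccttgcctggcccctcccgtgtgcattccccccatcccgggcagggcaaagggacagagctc
Igfbp2, chr1:72824230-72824479, plus strand: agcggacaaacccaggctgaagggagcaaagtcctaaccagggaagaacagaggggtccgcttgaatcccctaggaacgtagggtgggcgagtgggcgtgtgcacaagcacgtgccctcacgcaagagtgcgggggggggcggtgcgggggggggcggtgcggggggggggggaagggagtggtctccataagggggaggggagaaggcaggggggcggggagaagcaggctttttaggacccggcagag
The Igfals stretch holds 1 match, at position -236 from the start, and the Igfbp2 stretch holds none. Another annotated Igfals start, further downstream, has a match at -58.
Igfals, chr17:24878168-24878197, plus strand: aggtgTTCCTAGAAgaggccctgggggagg
The table of promoters had 16 windows of 300 bases for 9 of the 10 genes, and none for Socs2, which was therefore not searched. The motif lay in windows of 3 of these 9 genes, Igfals, Cish and Bcl6, and in those of 9.55% of all genes in the table. By window it lay in 5 of the 16, against 8.3% of all windows. All 27025 genes together had 32851 windows, fewer per gene than the 9 had, so the shares of genes are not fully alike. These are matches of letters, with no measurement of binding.

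**Figure D2:**
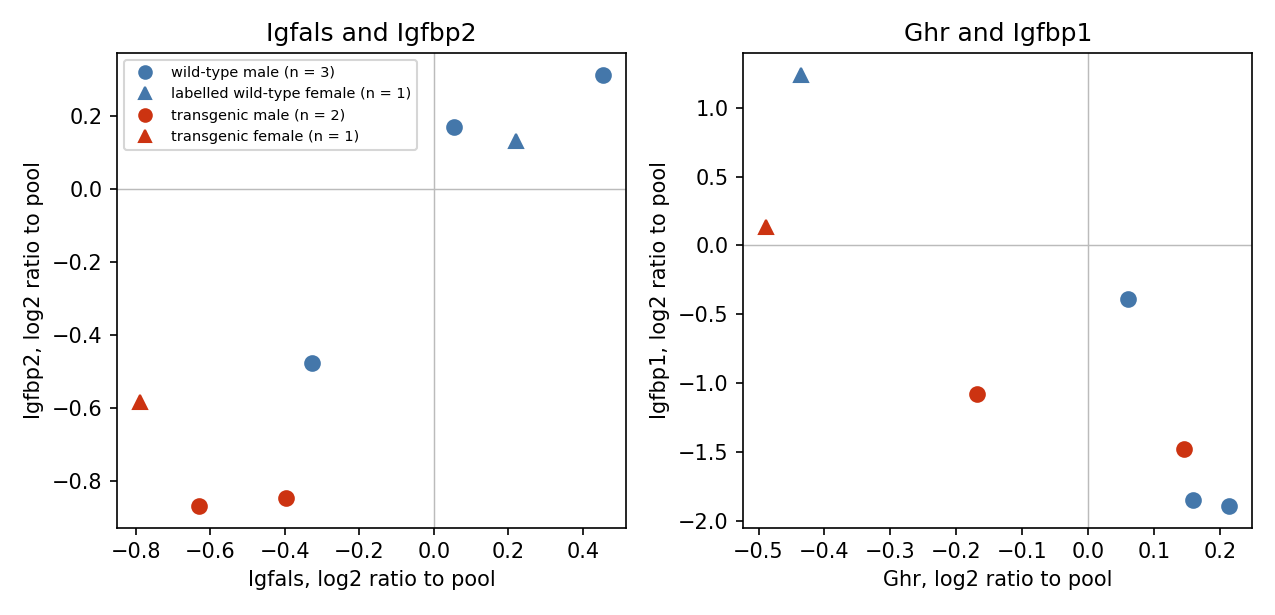
Log2 ratios to the pool of 2 gene pairs, 1 symbol per animal (circles males, triangles females, blue wild type, red transgenic). Left, the 3 transgenic animals and wild-type male 3 lie in the lower left corner for Igfals and Igfbp2; right, both females lie at the upper left for Ghr and Igfbp1.

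Socs2, the feedback inhibitor that limits growth hormone signalling and whose loss gives oversized mice, had the widest genotype difference of the axis but did not separate the groups. Transgenic male 2 read -1.58 and the transgenic female -0.92, while transgenic male 1 read -0.29. The wild-type males were close together at -0.32, -0.23 and -0.37, and the labelled wild-type female read 0.76. Transgenic male 1 therefore lay among the wild-type males, and the other transgenic animals lay below all wild-type animals. The difference was -0.94 ± 0.32 SE (1.92-fold lower, 95% interval -1.69 to -0.18, unadjusted p = 0.0214, adjusted p = 0.718 in limma).

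Single animals set the size of the Socs2 difference. It was -1.44 without transgenic male 1, -0.66 without transgenic male 2 and -0.63 without either female (adjusted p 0.275 to 0.9997 over all alternatives). The probes themselves were close: the 2 Socs2 probes had a median difference of 0.11 per array and at most 0.16, and single probes gave -0.93 and -0.95. Over 998 genes with 2 probes the median difference per array was 0.15.

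Cish, the other SOCS-family inhibitor that STAT5 induces directly, spanned a much narrower range. It read -0.43 in the transgenic female and -0.20 and -0.11 in the transgenic males. Wild-type males read 0.18, -0.17 and 0.00, and the labelled wild-type female -0.09. The groups overlapped through wild-type male 3, which lay below transgenic male 2. The difference was -0.21 ± 0.11 SE (95% interval -0.47 to 0.05, adjusted p = 0.746 in limma).

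Cish carries a pair of STAT motifs at its annotated start, the first beginning at the start base itself, and is shown with the Bcl6 sites as the other genes of the axis whose windows hold the motif. The first Bcl6 line comes from the upstream start and the other 3 from the downstream start in the table.
Cish, chr9:107296654-107296683, plus strand: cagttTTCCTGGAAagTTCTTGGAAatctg
Bcl6, chr16:23988946-23988975, minus strand: attagTTCTCAGAAttccagaggccgagct
Bcl6, chr16:23981427-23981456, minus strand: gcggcTTCCTGGAAagttacttctcgttgg
Bcl6, chr16:23981381-23981410, minus strand: gagtgTTCTGTGAAatccttagagccgaga
Bcl6, chr16:23981347-23981376, minus strand: ctacgTTCCGGGAAtgagagggctgtacca
Bcl6, with 4 matches over its windows, was among the steadiest genes measured, and Cish spanned a 1.52-fold range over the 7 animals.

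Igf1, the main growth-promoting product of the pathway, did not follow Igfals. It read 0.61 in the transgenic female and 0.56 in transgenic male 1, but -0.14 in transgenic male 2. Wild-type males read 0.01, 0.40 and -0.24, and the labelled wild-type female -0.27. The transgenic female and transgenic male 1 thus lay above all wild-type animals and transgenic male 2 among them, with a difference of 0.36 ± 0.24 SE (95% interval -0.20 to 0.92, adjusted p = 0.796 in limma). The difference was 0.15 without either female, which is that of the males alone, and 0.65 without transgenic male 2.

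Igfbp1, the binding protein that responds fastest to insulin and fasting, was the most variable gene of the axis, over an 8.77-fold range. It read -1.85, -0.39 and -1.89 in the wild-type males and 1.24 in the labelled wild-type female. Transgenic males read -1.08 and -1.48, and the transgenic female 0.13. Within each sex the genotypes overlapped or rested on single animals, and the genotype difference was -0.26 ± 0.41 SE (95% interval -1.22 to 0.70, adjusted p = 0.954 in limma). In the males alone it was 0.10.

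Ghr, the receptor at the head of the pathway, differed little by genotype. Transgenic males read -0.17 and 0.15 against 0.16, 0.06 and 0.21 in the wild-type males, and the females read -0.49 (transgenic) and -0.44 (labelled wild type). The genotype difference was -0.13 ± 0.11 SE (95% interval -0.38 to 0.12, adjusted p = 0.861 in limma).

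The transcription factors gave a contrast between the STAT5 genes, which lie next to each other on the same chromosome. Stat5b, the main growth hormone signal transducer of liver, stayed between -0.07 and 0.14 in all 7 animals, a 1.16-fold range, and its SD over the arrays was at the 6.36 percentile of all features. Its genotype difference was -0.0028 ± 0.089 SE (95% interval -0.21 to 0.20, adjusted p = 0.998 in limma). Stat5a read 0.57 in the transgenic female and 0.25 and 0.47 in the transgenic males. Wild-type males read 0.67, -0.27 and 0.26, and the labelled wild-type female -0.58. The transgenic animals were all above 0 while the wild-type animals lay on both sides, so the groups overlapped, with a difference of 0.44 ± 0.27 SE (95% interval -0.18 to 1.07, adjusted p = 0.788 in limma). Without either female it was 0.15, which is that of the males alone.

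Bcl6, a repressor that binds DNA motifs close to those of STAT5 and lowers some of its targets in male liver, lay between -0.13 and 0.09. It read 0.09 and -0.13 in the transgenic males, 0.04 in the transgenic female, and -0.08 to 0.05 in the wild-type animals. Its difference was 0.01 ± 0.10 SE (95% interval -0.21 to 0.24, adjusted p = 0.995 in limma), with an SD at the 7.10 percentile of all features. A gene that is poorly detected also reads near 0 against a pool, and signal over background is unknown here.

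In the 5 males, a subset of the same animals, the order of Igfals and Igfbp2 was fixed by that over all 7. No further gene of the axis had the transgenic males below the wild-type males (2 of 10, where 11.4% of all features did), and 0 had them above, where 11.2% did. The male difference was -0.86 ± 0.24 SE in Igfbp2 (unadjusted p = 0.00932, adjusted p = 0.456 in limma, n = 2 and 3) and -0.58 ± 0.23 SE in Igfals (unadjusted p = 0.0427, adjusted p = 0.696). These were the 2 of the 10 genes at an unadjusted p under 0.05, against 6.96% of all features, and 0 of the 10 passed the adjusted threshold, against 0.0315% of all features. Socs2 differed by -0.63 ± 0.35 SE in the males (95% interval -1.46 to 0.20), the same fit as without either female.

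Between the 2 females, which allow no test, the transgenic animal was lower by 1.68 in Socs2 (3.21-fold), by 1.11 in Igfbp1 and by 1.01 in Igfals. It was 1.15 higher in Stat5a and 0.88 higher in Igf1. The difference between the sexes in the genotype effect was tested as an interaction, with the spread taken from the males. Of the 10 genes 0 passed it at the adjusted threshold, where 0.072% of all features did, and 0 at an unadjusted p under 0.05, where 8.42% did. The smallest p of the axis was that of Stat5a (1.004 larger in females, unadjusted p = 0.082, adjusted p = 0.643 in limma).

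**Figure D3:**
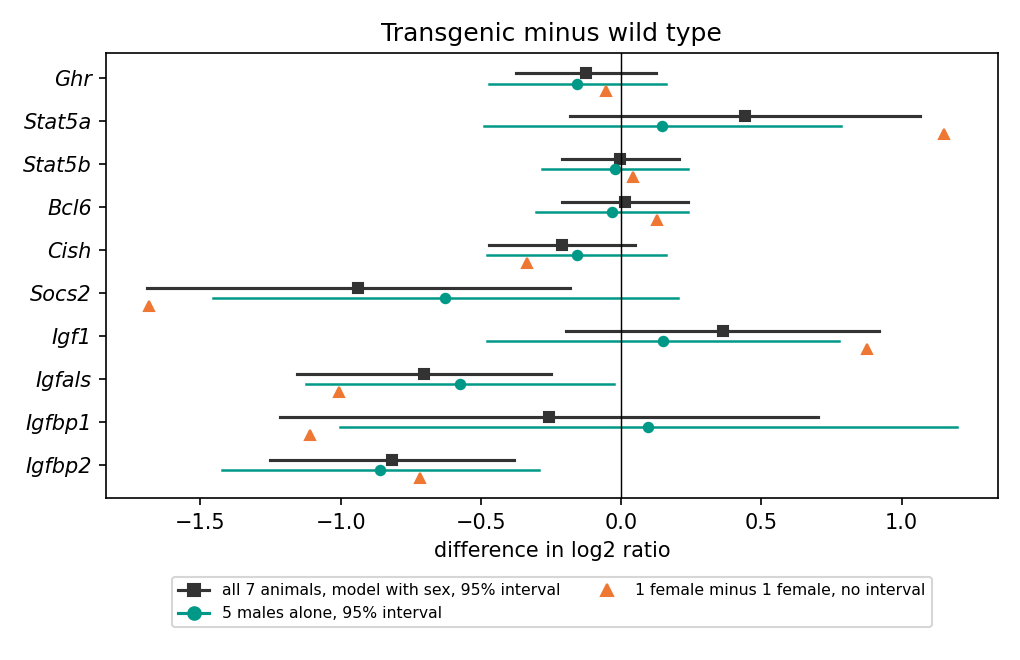
Transgenic minus wild-type difference in log2 ratio (horizontal axis) for each gene: squares, all 7 animals in the model with sex; circles, 5 males alone; bars, 95% intervals; triangles, 1 female minus 1 female, with no interval. The bars of Igfals and Igfbp2 lie below 0 in both fits, and that of Socs2 in the fit over all animals, before adjustment over 22218 features.

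By sex the smallest p of the axis were those of Igfbp1 and Ghr, and neither gene passed the adjusted threshold. In a list of 10 genes the counts below lie near the shares over all features. Both females lay below all 5 males in 1 of the 10 genes, Ghr, where 6.83% of all features did, and above them in 1, Igfbp1, where 6.04% did. Igfbp1 averaged 0.69 in the 2 females and -1.34 ± 0.62 (SD, n = 5) in the males, a fitted difference of 2.05 ± 0.45 SE (4.14-fold higher, 95% interval 0.997 to 3.10, unadjusted p = 0.00224, adjusted p = 0.173 in limma). Ghr averaged -0.46 in the females and 0.08 ± 0.15 (SD, n = 5) in the males, a difference of -0.53 ± 0.12 SE (1.45-fold lower, 95% interval -0.81 to -0.26, unadjusted p = 0.00232, adjusted p = 0.174). These were the 2 of the 10 genes at an unadjusted p under 0.05, against 9.23% of all features.

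At the adjusted threshold 0 of the 10 genes differed between the sexes, where 0.167% of all features were higher and 0.185% lower in females. The Igfbp1 difference was 1.41 without the labelled wild-type female and 2.62 without the transgenic female. That of Ghr stayed between -0.60 and -0.45 over the alternatives (adjusted p 0.124 to 0.579). The sex difference of Socs2, 0.57 ± 0.35 SE, rested on the labelled wild-type female and was 0.02 without it. The intervals were -0.60 to 0.63 in Igf1, -0.54 to 0.45 in Igfals, -0.13 to 0.33 in Stat5b and -0.27 to 0.22 in Bcl6.

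**Figure D4:**
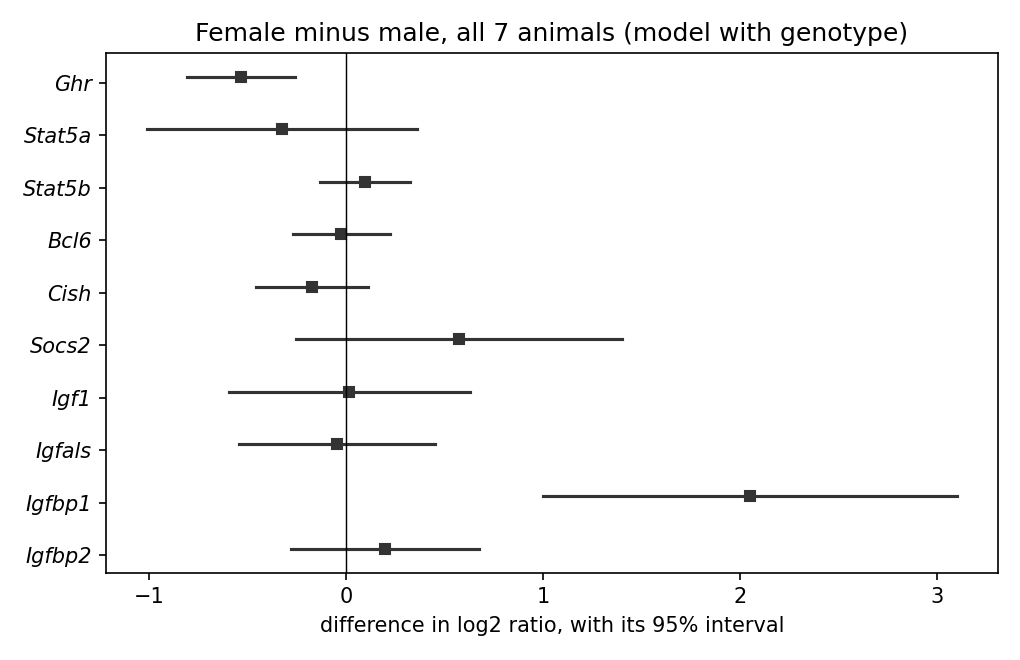
Female minus male difference in log2 ratio (horizontal axis) for each gene over all 7 animals, with its 95% interval, in the model with genotype. The bar of Igfbp1 lies above 0 and that of Ghr below 0, before adjustment over 22218 features, and the other 8 bars cross 0.

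The rest of the pathway is given from lists of textbook members. Of 19 measured genes for receptor signalling (JAK2, the other SOCS proteins, phosphatases and adaptors), 8 had a positive and 11 a negative genotype difference, with a median of -0.06, and 0 passed. The smallest p were those of the phosphatase Ptpn6 (0.18 ± 0.09 SE) and the STAT inhibitor Pias3 (-0.22 ± 0.12 SE). Jak2 read -0.19 to -0.18 in the 3 transgenic animals and -0.36 to 0.38 in the wild-type animals. Of the 19 genes, 1 (Ptpn2) lay above all wild-type animals in all transgenic animals, where 3.17% of all features did. Likewise 1 (Socs3) lay below, where 2.84% did, so both counts are near these shares. Socs3, the inhibitor induced by cytokines as well as growth hormone, read -0.12 to -0.11 in the transgenic and -0.03 to 0.10 in the wild-type animals, a narrow gap between groups in a gene with little spread (-0.14, adjusted p = 0.775 in limma).

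The other 14 IGF-system genes had 5 positive and 9 negative differences with a median of -0.02, and 0 passed. None separated the genotypes. Igfbp5 differed by 0.21 ± 0.11 SE and Igfbp4 by -0.29 ± 0.23 SE, the smallest p of this list, while the IGF receptor Igf1r (-0.05) and Igfbp3 (0.07), the partner of Igfals in the blood complex, lay near 0. By sex the smallest p were those of Igfbp5 (-0.39 ± 0.12 SE) and Igfbp7 (0.32 ± 0.15 SE), and neither passed.

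Of 15 liver transcription factors and STAT5-linked regulators, 0 passed for genotype (5 positive, 10 negative, median -0.07), the smallest p being those of Trim24 (0.45 ± 0.20 SE) and Foxa2 (-0.35 ± 0.16 SE). By sex 2 of the 15 were called, both higher in females, where 0.167% of all features were called higher. Cux2, a repressor of male-biased genes that female growth hormone secretion induces, read 1.06 and 0.46 in the females and -1.19 to -0.62 in the males (3.10-fold, adjusted p = 0.0248 in limma). Trim24, a coregulator of nuclear receptors, read 1.03 and 1.23 in the females and -1.11 to 0.10 in the males (3.21-fold, adjusted p = 0.0322 in limma).

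Genes listed for a known sex bias that depends on growth hormone secretion also differed by sex in these livers. The lists were chosen for that bias, so this serves only as a check of the sex labels. Growth hormone secretion was not measured. Of 17 male-biased genes 16 were lower in females, 9 of them called, where 0.185% of all features were called lower. Among the 9 were Cyp2d9 and Nat8 (adjusted p of 0.000402 and 0.000305 in limma). Of 17 female-biased genes 16 were higher in females, 6 of them called, among them A1bg and Sult3a1, where 0.167% of all features were called higher. For genotype over all animals 0 of either list passed. At an unadjusted p under 0.05 in limma there were 2 of the 17 male-biased and 7 of the 17 female-biased genes, against 6.91% of all features. In the males alone 7 features passed, 0.0315% of all. Among them were 1 male-biased gene, Cyp7b1 (-1.38 ± 0.11 SE), and 2 female-biased genes, Cyp2b9 (2.29 ± 0.18 SE) and Cyp2b13 (2.33 ± 0.17 SE). Each of these 3 had an adjusted p of 0.026 in limma. All 3 calls were lost without wild-type male 2, when 0 features passed in the males. Cyp7b1, an oxysterol hydroxylase, lay at 0.33 to 0.48 in wild-type males, above transgenic male 1 (-1.01) and transgenic male 2 (-0.93). Between the 2 females, which allow no test by themselves, the transgenic minus wild-type difference was 0.78 in Cyp7b1, opposite to the males. The interaction fitted above was 2.16 ± 0.20 SE in Cyp7b1 (larger in females). It rests on 1 female per genotype, with the spread taken from the males. The difference between the 2 females was 0.31 in Cyp2b9 and -0.09 in Cyp2b13. Female-biased genes had a median genotype difference of 0.43 over all animals and 0.54 in the males alone, where the transgenic males lay above the wild-type males in 7 of the 17 and below in 3, against 11.2% and 11.4% of all features. Their median per animal overlapped between genotypes, at -0.38 and -0.58 in the transgenic males, with the wild-type males at -0.88 to -0.56. Male-biased genes had medians of -0.09 over all animals and -0.31 in the males alone, where the transgenic males lay below the wild-type males in 7 of the 17 and above in 0. The male-biased list, per animal, had a median of -0.19 in transgenic male 1 and 0.03 in transgenic male 2, and the wild-type males had 0.25 to 0.33. The smallest genotype p in the sex-biased lists were those of Moxd1 (-0.46 ± 0.09 SE) and Nat8 (0.65 ± 0.19 SE) among male-biased genes, and of Cyp2b10 (0.62 ± 0.09 SE) and Cyp2b9 (1.71 ± 0.36 SE) among female-biased ones.

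Insulin- and fasting-responsive genes lay higher in females, as Igfbp1 did, without passing the test. All 10 measured genes of this list had a positive female minus male difference, with a median of 0.50, and 0 passed. Over all 22218 features 11617 were positive, and the comparison rests on 2 females. Markers of some other cells lay the same way by sex, with 12 of 12 macrophage markers positive (median 0.85), 8 of 9 endothelial markers (0.26) and 8 of 9 stellate markers (0.19). So did 4 of 5 neutrophil and 6 of 8 lymphocyte markers. Bile duct markers (1 of 5 positive, median -0.12) and adipocyte markers (0 of 4, -0.14) lay the other way, and 2 of 4 red cell markers were positive. In each of these lists 0 passed. Pdk4, the fasting-induced kinase that shuts pyruvate dehydrogenase, read 0.78 and 0.19 in the females and -0.73 to -0.29 in the males (0.95 ± 0.14 SE, adjusted p = 0.0572 in limma). Ppargc1a, a coactivator of the fasting response, differed by 0.77 ± 0.15 SE and Irs2 by 0.73 ± 0.27 SE. By genotype 9 of the 10 were negative, with a median of -0.15 and 0 passed, where 11498 of all 22218 features were negative. At an unadjusted p under 0.05 in limma there were 4 of the 10, against 6.91% of all features. Pck1, the gluconeogenic enzyme, read -1.11 to -0.66 in the transgenic and -0.92 to 0.39 in the wild-type animals (-0.69 ± 0.23 SE), while Ppargc1a went the other way (0.46 ± 0.14 SE). The part of feeding state or of these cells in the Igfbp1 values was not tested.

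By genotype no marker of another cell type passed the test, and in bulk tissue fewer cells of a type and less RNA per cell cannot be told apart. Of 12 macrophage markers 10 had a positive genotype difference (median 0.53, 0 called). Their median per animal was 0.21 to 0.48 in the transgenic animals, -0.80 to -0.13 in the wild-type males and 0.91 on the labelled wild-type female. The median difference was 0.90 in the males alone and -0.29 between the 2 females. The transgenic males lay above the wild-type males in 9 of the 12 macrophage markers and below in 0, against 11.2% and 11.4% of all features. Of 10 hepatocyte markers 6 had a positive difference, with a median of 0.05, and their median per animal ran from -0.16 to 0.06. The medians of stellate, endothelial, bile duct, lymphocyte, neutrophil and adipocyte markers lay between -0.08 and 0.09, and that of 4 red cell markers was 0.22, with 0 called in each list. Ratios to a pool do not show whether a marker is present at all, and the part of these cells in the Igfals, Igfbp2 and Socs2 values was not tested.

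The genes whose values over the 7 animals were most like those of the main pathway outputs are given as a description. All arrays share the pool, and with 7 points high correlations are common: 254 named genes had r above 0.9 with Igf1, 132 with Cish, 36 with Socs2 and 19 with Bcl6. Nearest to Igf1 were Sap30l, B3gnt5 and Synrg (r = 0.98 for each). Nearest to Socs2 were F830016B08Rik (r = 0.995), Tcf21 and Dffa (0.97 each), whose values stayed between -0.17 and 0.20. Nearest to Cish were Cad, B3galnt2 and Rgl2 (0.97 each), and to Bcl6 Kir3dl1, Dbn1 and Mapk6 (0.96, 0.95 and 0.95).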

How the data were processed

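Liver RNA of 7 mice was read on 2-colour arrays against 1 pool, with dye swaps, per the labels. The authors deposited log10 ratios of each animal to the pool for 23574 probes, 1 value per array; the base follows from values ending at exactly -2 and 2. Background correction, normalization and how swapped arrays were combined are not given in the sources used here. The labels name 1 channel order, with the pool as Cy3 and the animal as Cy5, so which values come from swapped arrays is also unknown. Deposited values times 3.32 gave the log2 ratios used in the text. Of the probes, 17824 had 1 gene symbol in the platform annotation, 50 several and 5700 none; probes of a gene were averaged (22218 features). Array medians ran from -0.01 to 0.03; how the columns were centred is unknown.

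Differences were fitted across all features with limma (3.58.1, R 4.3.3; lmFit, eBayes) with genotype and sex, in the 5 males alone, and with an interaction; p-values were adjusted by Benjamini-Hochberg and called at 0.05. The fit was checked on simulated data. The samples of a group are separate animals. Genes, lists and rules were chosen with earlier results of these data known. Named were the 10 genes, Zfp90, in each pathway list the 2 genes with the smallest p for genotype and the 2 for sex, and 3 like genes for Igf1, Socs2, Cish and Bcl6; Jak2, Socs3, Ptpn2, Igf1r, Igfbp3, Cyp7b1 and Cyp2b13 were named after their values were seen. Alternatives were median centring, quantile normalization, no other model term, robust variance, single probes, named genes only and leaving out each animal.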

Additional observations from a re-analysis of the deposited data

Results flagged for a closer look

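Socs2 was flagged in both groups of 4 or 5 animals in which it was tested for 1 animal far from the rest. Among the 4 animals labelled wild type, the female stood apart at 0.76, with the males at -0.37 to -0.23. Among the 5 males, transgenic male 2 stood apart at -1.58, with the others at -0.37 to -0.23. Of 20 such groups tested over the 10 genes, these 2 were flagged, and chance flags about 1 in 20. Both Socs2 probes showed each animal apart, at 0.70 and 0.83 in the labelled wild-type female and at -1.64 and -1.52 in transgenic male 2.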

How the results depend on the processing

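Of 272 recomputed values of the 10 genes, 248 kept their direction and 24 changed sign, and 0 passed the threshold. Many of the 248 could not change direction. Robust variance and named genes only leave the difference as it was, as do single probes in a gene with 1 probe. For genotype, leaving out either female and taking the males alone are the same fit, counted repeatedly. The 248 is therefore no measure of stability. The differences that changed sign had been reported as -0.33 (Stat5a by sex), -0.26 (Igfbp1 by genotype) or within 0.05 of 0. By sex, Igf1 was -0.0398 and Igfals 0.10 under quantile normalization, and with 1 animal left out the ranges were -0.33 to 0.40 (Igf1), -0.27 to 0.16 (Igfals), -0.80 to 0.21 (Stat5a) and -0.10 to 0.061 (Bcl6). By genotype, Stat5b was 0.0053 with median centring and 0.0054 without the sex term. In the males alone Bcl6 was -0.033 and Igfbp1 0.10. The ranges with 1 animal left out were -0.035 to 0.025 (Stat5b), -0.035 to 0.10 (Bcl6) and -0.50 to 0.10 (Igfbp1). Over all features, the 0 called for genotype became 7 without either female, which is the fit of the males alone, with a range of 0 to 7. The 78 called for sex became 49 under quantile normalization and 36 (without the labelled wild-type female) to 254 (without the transgenic female). The 7 in males became 4 under quantile normalization and 0 (without wild-type male 2) to 55 (without wild-type male 4). The 16 of the interaction became 6 under quantile normalization, 7 over named genes only and 4 to 77 without the same animals; it could not be fitted without a female. The count of 2 genes separated by genotype, recomputed as a choice made after seeing the data, became 1 under quantile normalization and 2 or 3 with 1 animal left out, which can only keep or add such genes and so tests nothing. The causes were not tested. No paired analysis was possible because the genotypes share only 1 replicate number in the labels. Signal over background is unknown, so a gene that reads near 0 cannot be told from one poorly detected.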

Other observations

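Whether the pool was made from the same 4 wild-type mice that were hybridised singly is not stated in the labels. The mean of the 4 wild-type ratios on the linear scale lay within 0.1 of 1 in all 10 genes (0.92 for Igfbp1 to 1.09 for Igfals), against 3 of 10 for the mean of the 3 transgenic ratios (0.56 to 1.36). Over all features the shares were 93.5% and 69.8%, and among 1621 features with an SD over 0.4 they were 71.3% and 20.4%. For Igfbp1 this held although the wild-type animals spread from -1.89 to 1.24 in log2 ratio.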
